A study of Mus musculus with 43 samples.

Results

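Glycolysis and the response to low oxygen were followed through 43 genes, taken by symbol from a gene table of 22462 rows. They comprise glucose carriers, the enzymes of each glycolytic step with their paralogues, the pyruvate dehydrogenase branch, lactate carriers, and the hypoxia-inducible factor (HIF) pathway with a set of its targets. All 43 symbols were in the table. The authors' software tested 42 of them for a difference, and left out Car9, a carbonic anhydrase and classic hypoxia marker, which was listed at 0.899 FPKM in control and at 0 in knockout cells.

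The cells were E14 (ES-E14TG2a), a mouse embryonic stem cell line, grown in medium with serum and LIF on gelatin. The series held 43 samples: 36 ChIP-seq samples, 1 input and 6 RNA-seq libraries, of which only the RNA-seq results were used here. The 3 control and 3 MTF2 KO libraries, biological replicates by the design text, were prepared from polyadenylated RNA. MTF2 is a Polycomb-like subunit of PRC2, which deposits the repressive mark H3K27me3, and the comparison asks how transcripts differ where it is disrupted. The sources used here give neither the oxygen level of the cultures nor how the knockout was made, nor whether it is a single clone. The table gives a single value per gene and group, in FPKM (fragments per kilobase of transcript per 1000000 fragments), pooled by the authors over the libraries. Values of single libraries, their spread and their depth are therefore not shown, and whether the groups overlap cannot be said. The targeted gene was a weak check of the labels: Mtf2 (chromosome 5, 108065742 to 108132620) was at 74.3 and 44.7 FPKM (q = 0.0496, authors' deposited table), and the exons held by the remaining transcripts are not known from the table.

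Glycolysis splits glucose into pyruvate in the cytosol, and pyruvate either enters mitochondria through pyruvate dehydrogenase or is reduced to lactate and exported. Embryonic stem cells are known for a high glycolytic flux even with oxygen present. HIF is a pair of an oxygen-sensitive alpha subunit and ARNT. With oxygen at hand, EGLN hydroxylases mark the alpha subunit and VHL directs its destruction, so HIF activity is set largely at the protein level, which RNA does not show. HIF raises many glycolytic genes by binding hypoxia response elements, whose core is ACGTG or GCGTG.

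The promoters of 5 genes are shown because these genes carry the contrasts described here: a glucose carrier, a pair of hexokinases that moved in opposite directions, a lactate exporter and a HIF subunit. Each run holds the 250 bases before the RefSeq transcription start (GRCm38.p6), read 5′ to 3′ on the gene's strand. Capitals mark each ACGTG or GCGTG and each reverse complement (CACGT or CACGC).
Slc2a1, chr4:119108495-119108744, plus strand: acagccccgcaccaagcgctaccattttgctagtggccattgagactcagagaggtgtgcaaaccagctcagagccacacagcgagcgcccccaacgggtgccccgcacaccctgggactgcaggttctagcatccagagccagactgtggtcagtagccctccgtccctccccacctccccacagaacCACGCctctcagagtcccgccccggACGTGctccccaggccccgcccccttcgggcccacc
Hk2, chr6:82774455-82774704, minus strand: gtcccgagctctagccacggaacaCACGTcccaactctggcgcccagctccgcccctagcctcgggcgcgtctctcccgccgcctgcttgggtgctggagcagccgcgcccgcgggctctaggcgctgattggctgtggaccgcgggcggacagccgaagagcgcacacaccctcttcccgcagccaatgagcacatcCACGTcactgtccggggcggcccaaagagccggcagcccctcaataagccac
Hkdc1, chr10:62422458-62422707, minus strand: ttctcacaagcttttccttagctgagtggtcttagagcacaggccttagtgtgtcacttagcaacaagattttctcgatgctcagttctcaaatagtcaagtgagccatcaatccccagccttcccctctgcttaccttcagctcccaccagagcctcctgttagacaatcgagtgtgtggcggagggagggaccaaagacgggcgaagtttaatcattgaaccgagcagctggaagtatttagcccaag
Slc16a3, chr11:120948817-120949066, plus strand: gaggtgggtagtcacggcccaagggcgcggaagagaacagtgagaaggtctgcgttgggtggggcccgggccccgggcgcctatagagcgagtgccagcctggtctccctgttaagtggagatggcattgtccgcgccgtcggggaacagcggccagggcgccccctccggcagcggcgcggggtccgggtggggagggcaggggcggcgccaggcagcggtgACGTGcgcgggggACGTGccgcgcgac
Hif1a, chr12:73907617-73907866, plus strand: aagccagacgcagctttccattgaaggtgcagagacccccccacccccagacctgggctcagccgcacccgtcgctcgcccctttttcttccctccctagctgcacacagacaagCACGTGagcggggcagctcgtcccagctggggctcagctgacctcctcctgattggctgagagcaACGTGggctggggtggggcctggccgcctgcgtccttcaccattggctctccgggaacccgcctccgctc

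In the windows from 250 bases before to 50 after the start, the core was found on either strand at 3 places for Hif1a and at 2 each for Slc2a1, Hk2 and Slc16a3. A CACGTG in the Hif1a promoter holds the core on both strands and is counted as 2 of its 3 places. Hkdc1 had 1 place, downstream of the start and thus outside the run shown. Promoter windows were at hand for 39 of the 43 members, with none for Slc2a3, Epas1, Bnip3l and Ndrg1, all called higher. Of the 55 member windows, 43 (78.2%) held the core, against 63.3% of 11278 windows of tested genes and 43.8% of all 32851 windows. Among windows of called members, 5 of 6 of genes called higher and 9 of 9 of genes called lower held it. The 6 windows came from only 4 of the 8 genes called higher, and the 9 from all 7 called lower. A Vegfa window, at 46032328 to 46032627 on chromosome 17, held no core. The core was thus in most of the windows at hand for both directions, and a match is only a run of letters, not a shown binding site. The number of CpG dinucleotides per window, a feature of the islands where PRC2 sits, was 36 for Slc16a3, 25 for Hk2, 25 for Hif1a, 18 for Slc2a1 and 9 for Hkdc1, with a median of 21 over windows of tested genes.

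A difference is called here where the authors' Cuffdiff q, their p adjusted over all tested genes, was at or under 0.05. Of the 42 tested members, 15 were called, 8 higher and 7 lower in knockout cells. Among all 11362 tested genes 12.9% were called, 6.90% higher and 6.03% lower. The members' shares were 35.7% in either direction, 19.0% higher and 16.7% lower. Calls were more frequent among well expressed genes, at 15.5% of all genes with 5 FPKM or more in at least 1 group, where 15 of 35 members were called. A test of the list against other genes was not made. The median log2 ratio of the tested members was -0.01, with 21 above and 21 below 0, beside -0.0035 for all tested genes. Throughout, the log2 ratio is log2 of knockout over control FPKM with 0.5 added to each, which understates changes of low genes.

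Counts differed by role, and that difference itself was not tested. Among the 24 glucose carriers, glycolytic enzymes and lactate carriers, 7 were called lower and 2 higher, with a median log2 ratio of -0.39. These were 29.2% and 8.33%, beside 6.03% and 6.90% of all tested genes. The 24 had a median control level of 94.4 FPKM, against 11.3 FPKM for all tested genes. Genes of like level were not set beside them. Among the 12 tested HIF subunits, HIF regulators and HIF targets outside glycolysis, 5 (41.7%) were called higher and 0 lower, with a median of 0.58. HIF also raises many glycolytic genes, which were counted with the carriers and enzymes. The 0 lower calls therefore hold for this grouping only. The summed level of the 20 glycolytic enzymes went from 6966 FPKM in control to 4695 FPKM in knockout cells. Most of that sum came from Pkm and Aldoa, neither of which was called. The sum over all tested genes was lower in knockout cells too, at 557784 and 502990 FPKM, 90.2% of control. The sums given here and for single steps below are not corrected for this.

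**Figure D1:**
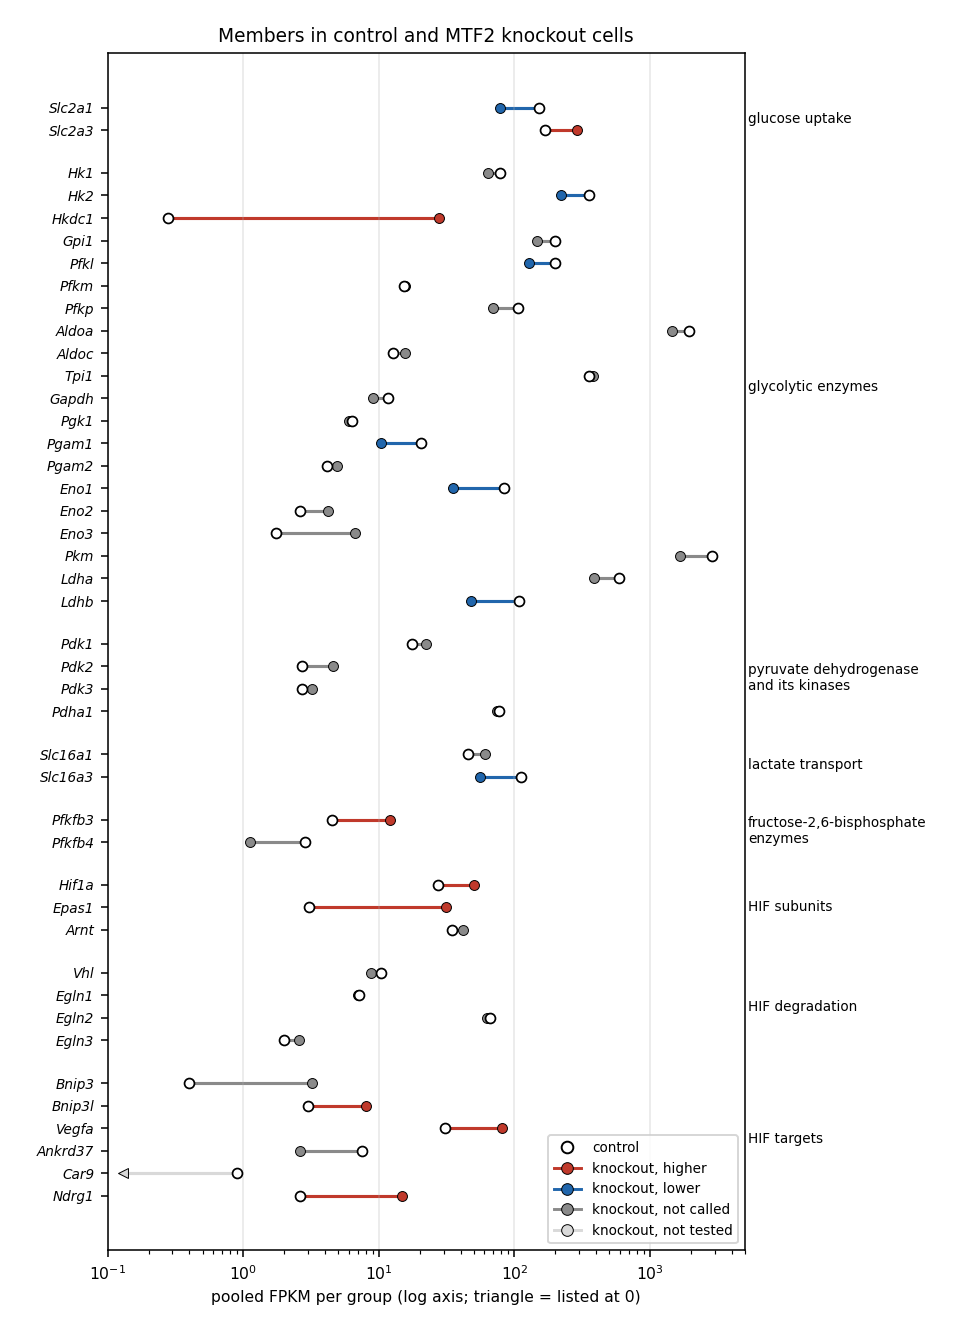
Pooled FPKM of the 43 members in control (open circles) and MTF2 knockout cells (filled, coloured by call) on a log axis, in pathway order, with a triangle for a value listed at 0. Most highly expressed enzymes lie lower in knockout cells, whereas Hkdc1 crosses from 0.277 to 27.7 FPKM and Epas1 from 3.05 to 31.1 FPKM.

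Both glucose carriers changed, in opposite directions. Slc2a1 (GLUT1; chromosome 4, 119108711 to 119137983, mm10), the widely expressed carrier, stood at 151 and 78.1 FPKM in control and knockout cells. It fell to 51.6% of control, a log2 ratio of -0.95, with q = 0.0012 in the authors' deposited table. Slc2a3 (GLUT3; chromosome 6, 122727809 to 122742745), a high-affinity carrier, stood at 167 and 290 FPKM. It rose 1.73-fold, a log2 ratio of 0.79, with q = 0.0116 listed by the authors' deposited table. Control cells thus held the pair at like levels, while in knockout cells Slc2a3 was the higher one. Over the 7 glucose carrier genes listed, Slc2a3 made up 50.7% of summed FPKM in control and 76.1% in knockout cells, and Slc2a1 45.8% and 20.5%. The sum of these carriers was 330.5 and 381 FPKM, 115% of control. Slc2a4 and Slc2a8 held at most 2.51% of the sum in either group, and Slc2a2, Slc2a10 and Slc2a12 were listed at 0.

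Hexokinases, which trap glucose in the cell by phosphorylating it, also changed in makeup. Hk2 (chromosome 6, 82725025 to 82774454), the inducible form and main hexokinase here, stood at 355 and 222 FPKM. It fell to 62.6% of control, a log2 ratio of -0.68, with q = 0.0419 in the authors' deposited table. Hk1, the housekeeping form, was at 78.5 and 63.9 FPKM and was not called (q = 0.409, authors' deposited table). Hkdc1 (chromosome 10, 62383137 to 62422491), a hexokinase paralogue, stood at 0.277 and 27.7 FPKM. It rose 99.9-fold, a log2 ratio of 5.18, with q = 0.0066 as given in the authors' deposited table. It was among the largest gains of the table, above 99.9% of tested genes, and went from 0.0638% to 8.82% of the summed FPKM of Hk1, Hk2, Hk3 and Hkdc1. No gene under 1 FPKM in both groups was tested, so Hkdc1 and Bnip3 entered the test through their knockout level. Hk1 ends 3228 bases before Hkdc1 begins on chromosome 10. The 50 nearest expressed genes around Hkdc1 had a median log2 ratio of -0.08. Because Hk2 was so much higher in control cells, the summed FPKM of Hk1, Hk2, Hk3 and Hkdc1 still went from 434 to 314, 72.3% of control.

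The next steps had lower values in most members, and few passed the threshold. Gpi1, the isomerase after hexokinase, was at 198 and 146 FPKM (q = 0.158, authors' deposited table). Phosphofructokinase commits sugar to glycolysis, and Pfkl (chromosome 10, 77986947 to 78009807) was its main form here. Pfkl stood at 198 and 128 FPKM and fell to 64.7% of control, with q = 0.0389 in the authors' deposited table. Pfkp, at 106 and 69.3 FPKM, had a like ratio of -0.60 but was not called (q = 0.157, authors' deposited table). The muscle form Pfkm was at 15.4 and 15.5 FPKM. Shares of the phosphofructokinase forms stayed close, with Pfkl at 62.1% in control and 60.2% in knockout cells and Pfkp at 33.0% and 32.5%.

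Aldolase and triosephosphate isomerase, which produce the 3-carbon sugars, were not called. Aldoa was the second highest member, at 1945 and 1441 FPKM (log2 ratio -0.43, q = 0.298, authors' deposited table). Aldoc, the brain form, was at 12.8 and 15.5 FPKM, and Tpi1 at 355 and 381 FPKM. Tpi1 was the only 1 of the 11 enzymes with 50 FPKM or more in control cells whose ratio was above 0. Of these 11 well expressed enzymes, 4 (36.4%) were called lower and 0 higher, with a median log2 ratio of -0.61. Called lower were 6.03% of all tested genes and 7.45% of those with 5 FPKM or more in at least 1 group. Of the 9 enzymes under 50 FPKM in control cells, Hkdc1 was called higher and Pgam1 lower, with a median of 0.21. The cut used the control level, which is also the base of the ratio. A high control level by itself favours a ratio below 0, so part of this contrast may come from the cut. The same cut was not applied to all tested genes.

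Of the enzymes below the split, some were called lower and none higher. Gapdh was listed at 11.7 and 9.10 FPKM and Pgk1, the first step that makes ATP, at 6.37 and 6.05 FPKM, neither called. Their levels were at the middle or lower part of the tested genes in control cells, at percentiles 51.0 and 35.9. RefSeq lists 3 pseudogenes named after Gapdh and 3 after Pgk1, and reads shared with such copies cannot be placed with certainty. Both levels are therefore uncertain, and so are those of Ldha, with 3 named pseudogenes, Aldoa and Pgam1, with 2 each, and Ldhb, Vhl and Bnip3l, with 1 each. Shares that rest on them carry the same limit, and Aldoart1, a copy of Aldoa, was listed at 71.5 and 67.2 FPKM. Pgam1 (chromosome 19, 41911871 to 41918664), a mutase with 2 named pseudogenes, stood at 20.4 and 10.3 FPKM. It fell to 50.5% of control, a log2 ratio of -0.95, with q = 0.0333 in the authors' deposited table. The muscle form Pgam2 was at 4.16 and 4.90 FPKM.

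Enolase, the step before pyruvate kinase, had a called loss. Eno1 (chromosome 4, 150236952 to 150248879) stood at 83.3 and 35.3 FPKM. It fell to 42.4% of control, a log2 ratio of -1.23, with q = 0.0012 in the authors' deposited table. Eno1b, a copy of Eno1 on chromosome 18, was listed at 83.7 and 50.6 FPKM, as high as Eno1 itself in control cells. Reads may be split between them, so the level of each is uncertain. Eno1b fell too (log2 ratio -0.72, q = 0.0189, authors' deposited table), and the 2 rows summed gave 167 and 86.0 FPKM, a log2 ratio of -0.95. The neuronal form Eno2 was at 2.63 and 4.18 FPKM and the muscle form Eno3 at 1.74 and 6.62 FPKM. Eno3 had a log2 ratio of 1.67 but was not called (q = 0.549, authors' deposited table). Eno1 held 94.9% of summed FPKM of Eno1 to Eno4 in control and 76.2% in knockout cells, Eno1b left out.

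Pkm, which makes pyruvate, was the highest member, at 2871 and 1672 FPKM. The log2 ratio of -0.78 was not called (q = 0.105, authors' deposited table), although it was larger in size than that of Hk2. Lactate dehydrogenase reduces pyruvate to lactate. Ldha, its main form, was at 593 and 389 FPKM and was not called (log2 ratio -0.61, q = 0.117, authors' deposited table). Ldhb (chromosome 6, 142490249 to 142507957) stood at 109 and 47.9 FPKM. It fell to 44.1% of control, a log2 ratio of -1.17, with q = 0.0012 in the authors' deposited table. Ldha made up 84.4% of the summed Ldha, Ldhb and Ldhc level in control and 89.0% in knockout cells.

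**Figure D2:**
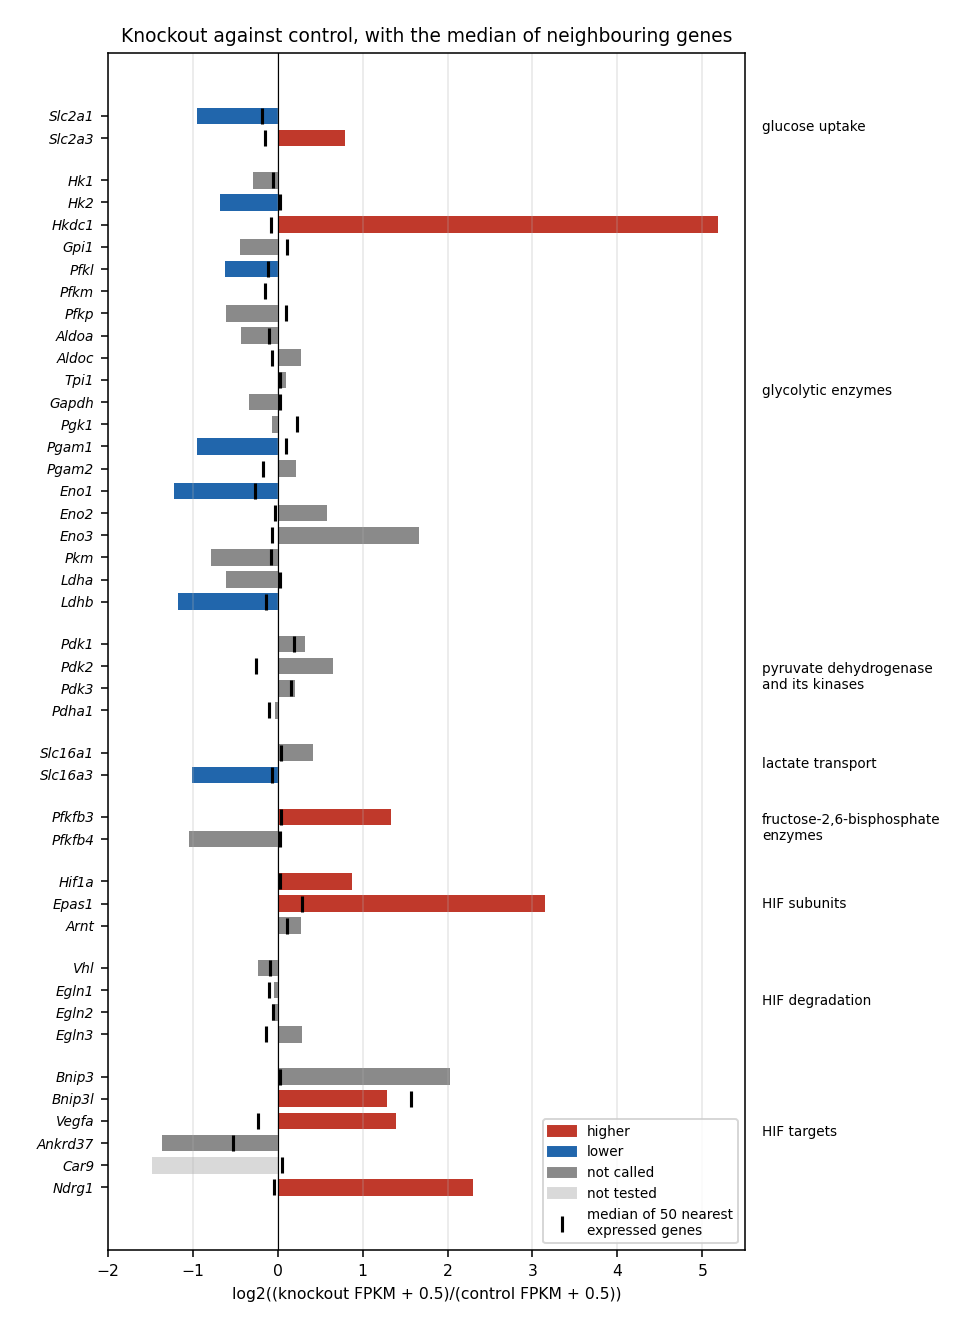
Log2 ratio of knockout over control FPKM (0.5 added to each) for the 43 members in pathway order, as bars coloured by the authors' call; black ticks give the median of the 50 nearest expressed genes on the chromosome. Blue bars are carriers and enzymes from Slc2a1 to Slc16a3, and red bars include HIF subunits and targets; among called members the tick lies beyond the bar for Bnip3l alone.

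Lactate carriers changed in balance. Slc16a3 (MCT4; chromosome 11, 120948480 to 120960868), the exporter of highly glycolytic cells, stood at 112 and 55.3 FPKM. It fell to 49.3% of control, a log2 ratio of -1.01, with q = 0.003 in the authors' deposited table. Slc16a1 (MCT1) was at 45.2 and 60.2 FPKM and was not called (log2 ratio 0.41, q = 0.236, authors' deposited table). Slc16a3 held 71.3% of the summed Slc16a1, Slc16a3 and Slc16a7 level in control and 47.8% in knockout cells. The sum was 157 and 116 FPKM. No test of these shares could be made, since the table has no values of single libraries.

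The branch into mitochondria had no called member. Pdha1, the catalytic subunit of pyruvate dehydrogenase, was at 76.4 and 74.8 FPKM (log2 ratio -0.03, q = 0.948, authors' deposited table). Of its inhibiting kinases, Pdk1, a HIF target, was the most abundant, at 17.6 and 22.1 FPKM (q = 0.376, authors' deposited table). Pdk2 was at 2.73 and 4.56 FPKM, and Pdk3 at 2.70 and 3.20 FPKM. Of 11 further genes of pyruvate entry, 1 (9.09%) was called higher and 0 lower, beside 6.90% of all tested genes called higher. That gene was Pdpr, a regulatory subunit of the opposing phosphatase, at 9.67 and 15.96 FPKM (q = 0.0396, authors' deposited table).

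Bifunctional enzymes make and remove the activator of phosphofructokinase, and 1 of the 2 members was called. Pfkfb3 (chromosome 2, 11471433 to 11554077), whose kinase side prevails, stood at 4.47 and 12.1 FPKM. It rose 2.70-fold, a log2 ratio of 1.34, with q = 0.0189 in the authors' deposited table. Pfkfb4 was at 2.85 and 1.12 FPKM, a log2 ratio of -1.05 that was not called (q = 0.131, authors' deposited table). Of the bifunctional enzymes that are not members, Pfkfb1 was at 4.06 and 4.78 FPKM and Pfkfb2 at 1.46 and 5.93 FPKM, neither called. Pfkfb3 was thus higher in cells where Pfkl was lower, while the value of Pfkfb4 went the other way.

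**Figure D3:**
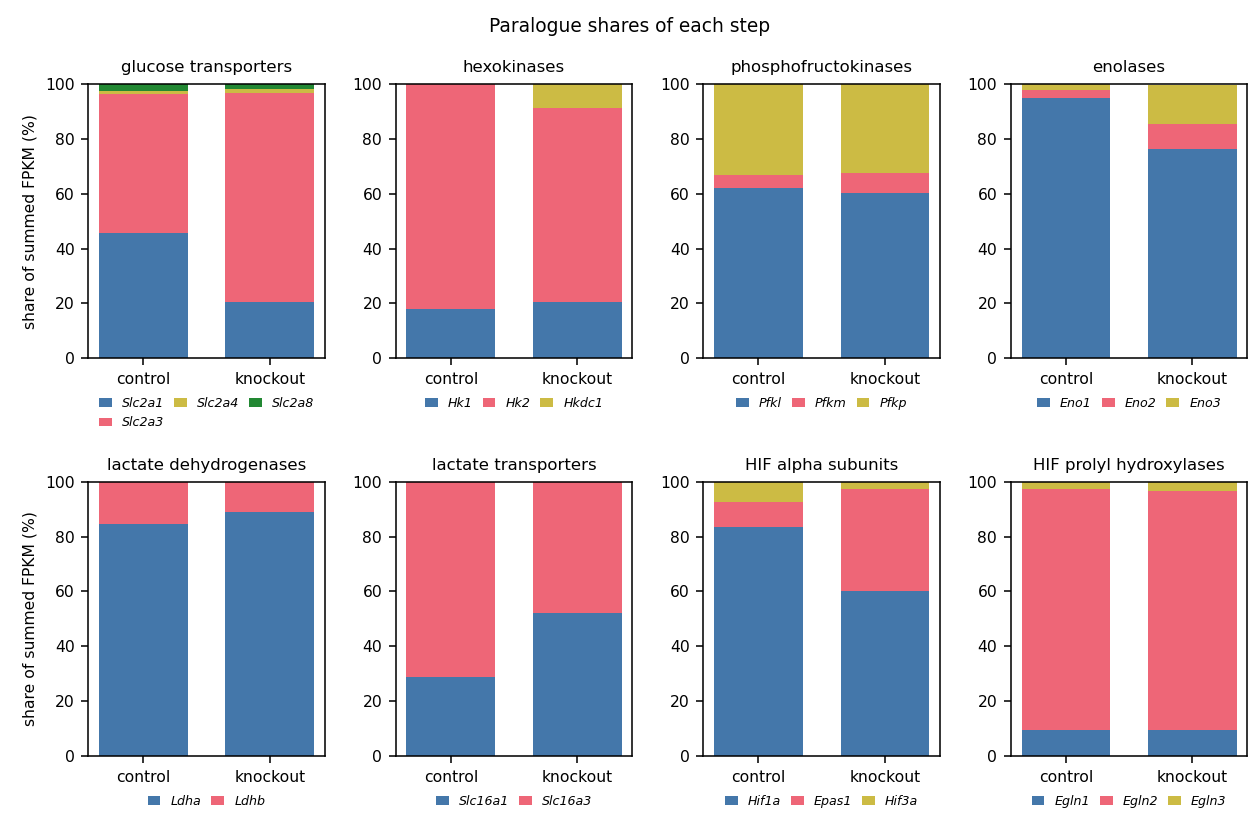
Share of each paralogue in the summed pooled FPKM of its step, in percent, for control and knockout cells, with paralogues under 0.5% in both groups left out. Slc2a3 takes 76.1% of the carriers in knockout against 50.7% in control cells, Slc16a3 drops from 71.3% to 47.8%, and Epas1 reaches 37.2% of the HIF alpha subunits, while phosphofructokinases and EGLN hydroxylases keep like shares.

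Of the HIF alpha subunits, Hif1a and Epas1 were higher in knockout cells. Hif1a (chromosome 12, 73901375 to 73947530), which drives glycolytic genes, stood at 27.2 and 50.3 FPKM. It rose 1.85-fold, a log2 ratio of 0.88, with q = 0.0218 in the authors' deposited table. Epas1 (HIF-2 alpha; chromosome 17, 86753907 to 86833410), the form prominent in endothelium and other vascular tissue, stood at 3.05 and 31.1 FPKM. It rose 10.2-fold, a log2 ratio of 3.15, with q = 0.0012 in the authors' deposited table. That ratio lay above 99.4% of tested genes. Arnt, the shared partner, was at 34.7 and 42.0 FPKM and was not called. Hif3a, which is not a member, was at 2.37 and 2.08 FPKM and was not called. Epas1 made up 9.35% of summed Hif1a, Epas1 and Hif3a FPKM in control and 37.2% in knockout cells, and the sum went from 32.6 to 83.5 FPKM.

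No gene of HIF degradation was called. Egln2, the most abundant hydroxylase here, was at 65.5 and 62.8 FPKM (q = 0.898, authors' deposited table). Egln1, the main oxygen sensor in most cells, was at 7.18 and 6.95 FPKM. Egln3, itself a HIF target, was at 2.01 and 2.55 FPKM. Vhl, the recognition subunit of the ligase, was at 10.4 and 8.72 FPKM. Their log2 ratios ran from -0.24 to 0.29. Of the 13 other HIF regulators, 1 (7.69%) was called higher and 0 lower, near the 6.90% of all tested genes called higher. That call was Cited2, which competes with HIF for its coactivators, at 60.2 and 99.8 FPKM (q = 0.0154, authors' deposited table).

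HIF targets outside glycolysis rose in part. Vegfa (chromosome 17, 46016993 to 46032369), the angiogenic growth factor, stood at 30.8 and 81.5 FPKM. It rose 2.65-fold, a log2 ratio of 1.39, with q = 0.0045 in the authors' deposited table. Ndrg1 (chromosome 15, 66929321 to 66969640), induced by hypoxia and during differentiation, stood at 2.63 and 14.9 FPKM. It rose 5.66-fold, a log2 ratio of 2.30, with q = 0.0012 in the authors' deposited table. Bnip3l (chromosome 14, 66985239 to 67008877), a receptor for the removal of mitochondria, stood at 3.02 and 8.09 FPKM. It rose 2.68-fold, a log2 ratio of 1.29, with q = 0.0127 in the authors' deposited table. Bnip3l is the only member on chromosome 14, and its 50 nearest expressed genes had a median log2 ratio of 1.57. Measured against those neighbours its ratio was -0.28, so its gain was no larger than that of the genes around it. For the other 14 called members the median of the neighbours lay between -0.27 and 0.28.

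The other targets did not follow one direction. Bnip3, the paralogue of Bnip3l, was at 0.399 and 3.18 FPKM, a log2 ratio of 2.03 that was not called (q = 0.516, authors' deposited table). Ankrd37 was at 7.50 and 2.60 FPKM, a log2 ratio of -1.37 that was not called either (q = 0.543, authors' deposited table). It shares its entry on chromosome 8 with Ufsp2 and Lrp2bp, and its neighbours had a median of -0.52. Car9 was not tested, as given above. Of the 5 tested members grouped as HIF targets, 3 were thus called higher and 0 lower.

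A wider list of 38 further HIF targets gave calls in both directions. Of the 28 tested, 7 were called higher and 2 lower, 25.0% and 7.14% beside 6.90% and 6.03% of all tested genes. Their median log2 ratio was 0.62. Loxl2, Edn1, Flt1, Cxcr4 and Rora were under 1 FPKM in control cells and entered the test through their knockout level. Their ratios could only be above 0, which raises that median. None of them was called. Among the genes called higher, P4ha1, a collagen prolyl hydroxylase, went from 15.2 to 46.6 FPKM, its paralogue P4ha2 from 4.03 to 20.6 FPKM, and Plod2, a lysyl hydroxylase, from 7.28 to 19.6 FPKM. Each of these had q = 0.0012 in the authors' deposited table. Plod1, at 41.5 and 63.7 FPKM, was not called, and neither was the lysyl oxidase Loxl2, at 0.456 and 4.23 FPKM. Loxl2 lies on chromosome 14, where its neighbours had a median of 1.09. Lox was not tested. Ddit4, an inhibitor of mTORC1, rose from 77.1 to 147 FPKM, and the secreted factor Stc2 from 6.07 to 19.6 FPKM. Kdm4c, a histone demethylase, rose from 6.79 to 13.1 FPKM and Ero1l, an oxidase of the endoplasmic reticulum, from 3.26 to 7.12 FPKM. Ero1l lies on chromosome 14, and its log2 ratio of 1.02 left 0.16 against a neighbour median of 0.85. The 2 called lower were Mxi1, an antagonist of MYC, from 13.0 to 7.10 FPKM, and Ak4, a mitochondrial adenylate kinase, from 5.46 to 2.06 FPKM. Uncalled targets ranged widely. Kdm3a was at 22.3 and 18.3 FPKM and Higd1a at 6.66 and 5.56 FPKM. The 6 uncalled targets with an absolute log2 ratio of 1 or more had 5 ratios above 0 and 1 below. Of these, Loxl2, Flt1, Cxcr4 and Rora could only be above 0, as given above, so this split shows no direction. The 5 above 0 were Loxl2, Bhlhe40 (9.74 and 33.3 FPKM), Flt1 (0.106 and 3.53 FPKM), Cxcr4 (0.193 and 1.84 FPKM) and Rora (0.211 and 1.74 FPKM). The 1 below was Hilpda (8.77 and 2.61 FPKM). Ddit4 and Stc2 are also known targets of the stress factor ATF4, and P4ha1, P4ha2 and Plod2 also serve collagen production.

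Markers of primitive endoderm, which lays down basement membrane, were also higher in knockout cells. Of 10 such markers, 8 (80.0%) were called higher and 0 lower, beside 6.90% of all tested genes called higher. Sox7, Dab2, Sox17 and Foxa2 were under 1 FPKM in control cells and entered the test through their knockout level. They could therefore not have been called lower, and Sox7 and Dab2 are among the 8 calls. Their summed level went from 217 to 1292 FPKM, of which Sparc alone made up 180 and 788 FPKM. Col4a1 on chromosome 8 went from 6.49 to 185 FPKM. On chromosome 14, Gata4 went from 2.17 to 71.7 FPKM and Sox7 from 0.367 to 11.3 FPKM. The neighbours of Col4a1, Gata4 and Sox7 had medians of 0.87, 1.36 and 1.38. In control cells single markers ranged from 0.367 to 180 FPKM. The 8 embryonic stem cell markers remained abundant, with a sum of 5191 and 5094 FPKM, 1 called higher and 0 lower. Of 8 fibroblast markers, 3 were tested, with 1 called lower and 0 higher, and Col3a1 and Dcn were listed at 0 in both groups. Their sum was 45.9 and 31.6 FPKM, most of it from the called gene Fbln1, at 38.9 and 18.5 FPKM. Of the 3 tested, 2 had ratios below 0 and 1 above, Thy1, at 5.14 and 11.4 FPKM. The 7 trophectoderm markers summed to 13.1 and 10.5 FPKM, with 0 called of 3 tested. The part of other cell types in the changes of the members was not tested. In such bulk RNA, a change in the number of cells of a type and a change of RNA per cell cannot be told apart.

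Over all 82 tested genes of the wider pathway that are not members, HIF targets included, 11 were called higher and 3 lower, 13.4% and 3.66% beside 6.90% and 6.03% of all tested genes, with a median log2 ratio of 0.09. The HIF targets among them that were under 1 FPKM in control cells could only have ratios above 0. In the branches off glycolysis the shares called were near the 12.9% of all tested genes. The pentose phosphate pathway had 1 lower and 0 higher calls among 7 tested genes, 14.3%. Its called gene, Taldo1, fell from 273 to 167 FPKM (q = 0.0116, authors' deposited table), while Tkt, at 335 and 289 FPKM, and Pgd, at 217 and 203 FPKM, were not called. In gluconeogenesis and glycogen metabolism 1 of 9 tested genes, 11.1%, was called. That was Pck2, which makes phosphoenolpyruvate in mitochondria and is another known ATF4 target, from 12.3 to 44.3 FPKM (q = 0.0012, authors' deposited table). Pck2 lies on chromosome 14, where its neighbours had a median of 1.03. Among 14 further paralogues of the steps, 1 (7.14%) was called, higher, beside 6.90% of all tested genes called higher. That was Slc16a6, of the monocarboxylate carrier family, at 5.56 and 15.0 FPKM. Bsg, the chaperone of the lactate carriers, was at 307 and 266 FPKM and was not called.

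**Figure D4:**
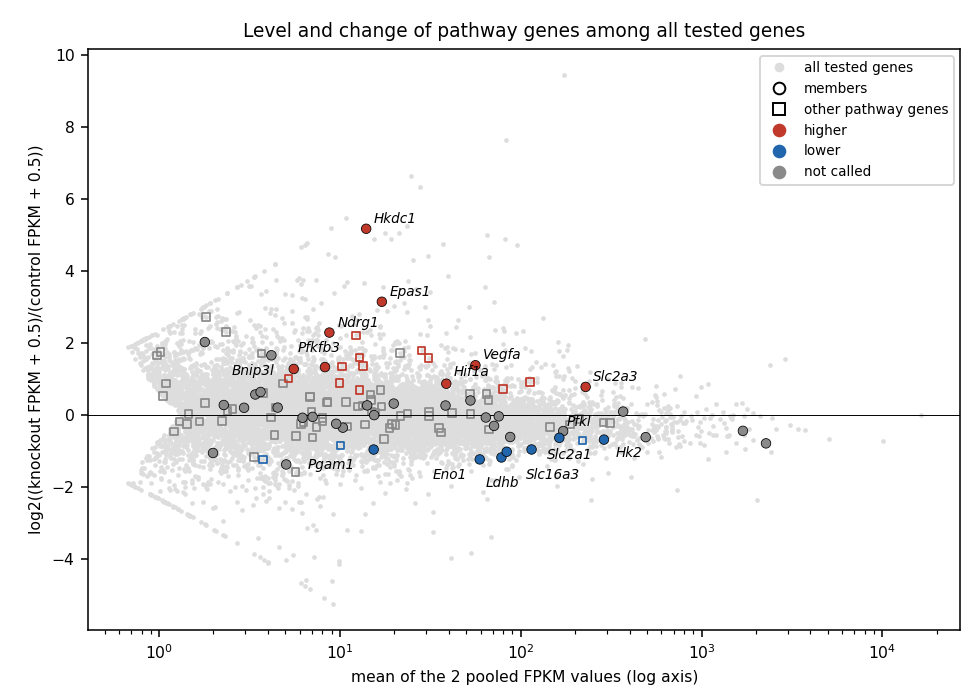
Log2 ratio of knockout over control FPKM (0.5 added to each) against the mean of the 2 pooled FPKM values on a log axis, for all tested genes (grey dots), members (circles, called ones named) and other pathway genes (squares). Members called lower lie at ratios from -1.23 to -0.63, and Hkdc1 at 5.18 stands highest among the members.

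At a stricter q of 0.01 fewer genes were called. Epas1, Hkdc1, Ndrg1 and Vegfa remained called higher, and Eno1, Ldhb, Slc16a3 and Slc2a1 lower, 4 of 42 members in each direction beside 3.86% and 2.96% of all tested genes. Hk2, Pfkl, Pgam1, Slc2a3, Pfkfb3, Hif1a and Bnip3l did not pass it. The test statistics of the authors' deposited table, read as standard normal values and adjusted over all genes, gave 3 higher calls among members (Epas1, Hkdc1 and Ndrg1) and 0 lower ones, and 1.10% of 11236 genes in either direction. Before adjustment, 4 of the 7 members called lower and 6 of the 8 called higher were past the normal limit of 0.05. These members were picked by the q of the same test, so large statistics follow in part from the choice. The counts are thus no further support for the calls. Of all tested genes with a finite statistic, picked by no q, 3.19% passed the limit in the lower and 4.89% in the higher direction.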

How the data were processed

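RNA-seq of 3 control and 3 MTF2 KO samples was analysed from 1 gene table, and ChIP-seq samples were not used here. The submitters' processing notes name TopHat2 2.1.0, Cuffdiff 2.2.1.3, Bowtie 1.0, deepTools, mm9 and mm10, with no role for any. Per the file headers, the FPKM values, log2 fold change, test statistic (a score), p-value and q-value are the authors' own, with replicates pooled. No source used here gives their scaling between libraries, which sets every ratio. Depth is unknown. The deposited q equalled a Benjamini-Hochberg adjustment over 11362 tested genes to within 5.2e-07, and its smallest value, 0.0012, was shared by 472 genes.

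Computed here with Python 3.11.15, pandas 2.3.3 and scipy 1.17.1 were log2 ratios with a pseudocount of 0.5, list counts and medians, paralogue shares, the median ratio of the 50 nearest expressed genes (1 FPKM or more in either group) and motif matches in RefSeq promoters. Starts were moved to 1-based. All 43 members lay on the same chromosome in RefSeq GRCm38.p6, 35 of them with starts within 2 kb, so coordinates are given as mm10. The adjustment and the neighbour median were tested on simulated data. Members and lists were chosen with earlier results of these data known. Values were named for called members, those with an absolute log2 ratio of 1 or more, the highest member of each step, and called genes of the wider lists. Further genes of the lists were picked for mention once their values were known. Alternatives tried were other thresholds, filters, pseudocounts, centrings and p-values.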

Additional observations from a re-analysis of the deposited data

How the results depend on the processing

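No paired analysis was possible because the table pools the libraries of each group, and for the same reason no library could be left out. Of the 8 higher calls, 4 were left at a q of 0.01, 6 with a minimum of 2-fold and 3 when the deposited statistic was read as a normal value; of the 7 lower calls, 4 were left at a q of 0.01, 3 with the 2-fold minimum and 0 with the normal p. The 2-fold minimum left 4.99% of all tested genes higher and 2.92% lower. At an unadjusted p under 0.05 the authors' deposited table holds 20 of the 42 members, the 15 calls and 5 more, beside 25.7% of all tested genes. In the wider list, 11 higher calls became 6, 7 and 1, and 3 lower calls became 0, 1 and 0, under the q of 0.01, the 2-fold minimum and the normal p. Why the deposited p of called members were smaller than normal ones was not tested. Without chromosomes 8 and 14, 7 higher and 7 lower calls of members were counted, and 8 higher and 3 lower in the wider list, beside 5.74% and 5.98% of the 10325 genes left. Expressed genes had a median log2 ratio of 0.705 over chromosome 14 as a whole and of 0.0075 over chromosome 8.

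The median log2 ratio of the members was near 0 and took either sign: 0.0244 centred on chromosomes, 0.05 centred on neighbours, -0.0611 at 5 FPKM or more, 0.0045 without chromosomes 8 and 14, and 0.13 with FPKM rescaled to the same sum per group, an alternative chosen after seeing the data that moved the median of all tested genes to 0.14. Relative to all genes the members' median did not move under that scaling by more than 0.01. The sign of each called member held under the 6 other ratios computed, except Bnip3l at -0.28 against its neighbours. None of the 60 paralogue shares recomputed without untested genes moved by 1 percentage point.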
